A study of Mus musculus with 16 samples.

Results

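The genes of cholesterol and fatty acid synthesis and of their control by the SREBP transcription factors were followed through 5 groups of whole mouse retinas. The 31 members were listed by name and found by gene symbol among the 54532 genes of the table for uninjected retinas, and by the same gene identifier among the 48440 genes of the table for injected retinas. All 31 were found in both tables. The rule is a list of names and uses no measured value, but the list was chosen with earlier results of these data known. They comprise 5 genes of SREBP control, 7 of the mevalonate and isoprenoid steps, 3 that lead from squalene to lanosterol, 9 that lead from lanosterol to cholesterol, 1 sterol transport gene and 6 genes of fatty acid synthesis.

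Uninjected retinas came from WT C57BL6/J mice at 18 months (n = 4), from Elovl2 mutant mice at 12 months (n = 3) and from WT mice at 12 months (n = 3). ELOVL2 is an enzyme that lengthens polyunsaturated fatty acids, and the mutant carries a cysteine-to-tryptophan substitution in it, written C234W in the design text and C34W in the genotype labels. The allele is a point substitution, so gene-level values do not check these labels. Injected retinas came from WT mice at 18 months. One eye received 0.36 nmol of the fatty acid 24:5 into the vitreous (n = 3) and the fellow eye received vehicle (n = 3), and retinas were taken 5 days later. The name 24:5 stands for 24 carbons and 5 double bonds, and ELOVL2 is known to make this fatty acid from shorter ones. The labels tie no 24:5 retina to its fellow vehicle retina and name no animal behind any library. The p-values therefore describe spread among libraries, part of which may be technical.

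Cholesterol is built from acetyl-CoA through mevalonate, squalene and lanosterol. The transcription factors SREBP1 and SREBP2 are held in the endoplasmic reticulum by SCAP and the INSIG proteins while sterols are plentiful, and are cut and sent to the nucleus when sterols fall. SREBP2 acts mainly on the genes of cholesterol synthesis and SREBP1 mainly on those of fatty acid synthesis, and polyunsaturated fatty acids are known to lower SREBP1 activity in liver. In the retina, Mueller glia and photoreceptors make part of the cholesterol that their membranes need, and the rest arrives from the blood.

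The libraries held 12810558 to 30519417 reads in uninjected retinas, recovered from FPKM (fragments scaled to transcript length and library depth), and 22066668 to 25609242 counts in injected retinas. Markers of rods, cones, Mueller glia, bipolar, amacrine and ganglion cells were above 0 in every group. Lens markers summed to 129 to 469 CPM (counts scaled to library depth with edgeR's TMM) in 24:5 retinas and to 168 to 1344 CPM in vehicle retinas. Earlier work on these tables used Malat1, a nuclear noncoding RNA, to mark a split among the uninjected libraries and Irf9, an interferon-pathway transcription factor, to mark one among the injected libraries. Malat1 lay above 200 FPKM in replicates 2 and 3 of WT at 18 months, replicate 1 of the mutant and replicates 1 and 2 of WT at 12 months. Irf9 lay above 100 CPM in 24:5 replicates 2 and 3 and in vehicle replicate 3. In whole tissue, fewer cells of a type and less RNA per cell cannot be told apart.

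Promoter windows of 250 bases before to 50 bases after the annotated start were matched by symbol in RefSeq (GRCm38.p6) for 25 of the 31 members. The windows of the 4 members with a match and the smallest p after 24:5 are shown, since their shared letters bear on a group of genes known to be read by one pair of factors. Insig1 encodes an endoplasmic reticulum anchor, Hmgcs1 encodes cytosolic HMG-CoA synthase, Idi1 encodes isopentenyl-diphosphate isomerase and Cyp51 encodes lanosterol demethylase. The Insig1 window is chr5:28071162-28071461 (plus strand), that of Hmgcs1 is chr13:119690101-119690400 (plus), that of Idi1 is chr13:8885356-8885655 (plus) and that of Cyp51 is chr5:4104648-4104947 (minus). In the mm10 coordinates of the authors' table, the genes themselves span chr5:28071363-28078662, chr13:119690379-119708260, chr13:8885501-8892451 and chr5:4081145-4104746, in the same order. Capitals mark CCAAT, the letters bound by NF-Y, a factor that works beside SREBPs, and TCACNCCAC, the core of the sterol regulatory element, each on either strand (ATTGG is CCAAT read on the opposite strand).
Insig1: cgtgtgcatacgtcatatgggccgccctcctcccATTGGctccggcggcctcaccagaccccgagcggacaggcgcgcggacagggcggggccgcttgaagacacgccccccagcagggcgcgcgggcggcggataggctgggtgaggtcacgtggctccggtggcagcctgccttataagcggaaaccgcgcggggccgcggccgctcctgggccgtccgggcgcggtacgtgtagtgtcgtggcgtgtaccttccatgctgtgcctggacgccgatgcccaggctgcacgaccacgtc
Hmgcs1: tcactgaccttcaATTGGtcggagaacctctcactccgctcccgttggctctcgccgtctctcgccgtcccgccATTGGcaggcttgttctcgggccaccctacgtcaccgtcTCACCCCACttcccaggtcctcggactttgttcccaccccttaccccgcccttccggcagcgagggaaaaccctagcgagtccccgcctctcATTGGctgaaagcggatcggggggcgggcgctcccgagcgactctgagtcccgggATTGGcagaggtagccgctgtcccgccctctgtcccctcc
Idi1: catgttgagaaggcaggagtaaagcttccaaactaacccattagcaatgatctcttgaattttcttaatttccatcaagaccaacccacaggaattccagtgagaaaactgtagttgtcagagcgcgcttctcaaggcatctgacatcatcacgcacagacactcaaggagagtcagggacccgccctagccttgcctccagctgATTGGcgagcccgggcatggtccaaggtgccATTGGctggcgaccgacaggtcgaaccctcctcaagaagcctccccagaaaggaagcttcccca
Cyp51: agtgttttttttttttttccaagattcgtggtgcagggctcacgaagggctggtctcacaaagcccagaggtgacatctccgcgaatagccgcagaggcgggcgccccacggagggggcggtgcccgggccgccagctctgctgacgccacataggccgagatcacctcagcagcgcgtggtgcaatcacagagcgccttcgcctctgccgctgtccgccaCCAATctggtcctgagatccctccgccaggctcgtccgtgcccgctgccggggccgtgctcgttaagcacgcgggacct

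CCAAT was present in the windows of 22 of the 25 members (88.0%), against 42.3% of 17491 protein-coding genes. Counted by window, since a gene can have several, it was in 69.7% of 33 member windows and 38.2% of 21262 protein-coding windows. Acaca, Acat2 and Scap had none. In 16 members a match began 30 to 120 bases before the start, a count not set against other genes. GGGCGG, the GC box read by Sp1, was in the windows of 22 members (88.0%), against 49.2% of protein-coding genes. The median GC content was 62.3% in member windows and 56.3% in protein-coding windows, and its part in these shares was not tested. CACGTG, the E-box, was in 5 members (20.0%), against 8.91% of protein-coding genes. The sterol regulatory core TCACNCCAC was in Hmgcs1 alone (4.0%), against 1.41% of protein-coding genes. Both strands were searched, and no match of one motif shared letters with a match of another in any member's window. These matches are descriptions of letters, and an empty window says only that the letters are not in it.

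**Figure D1:**
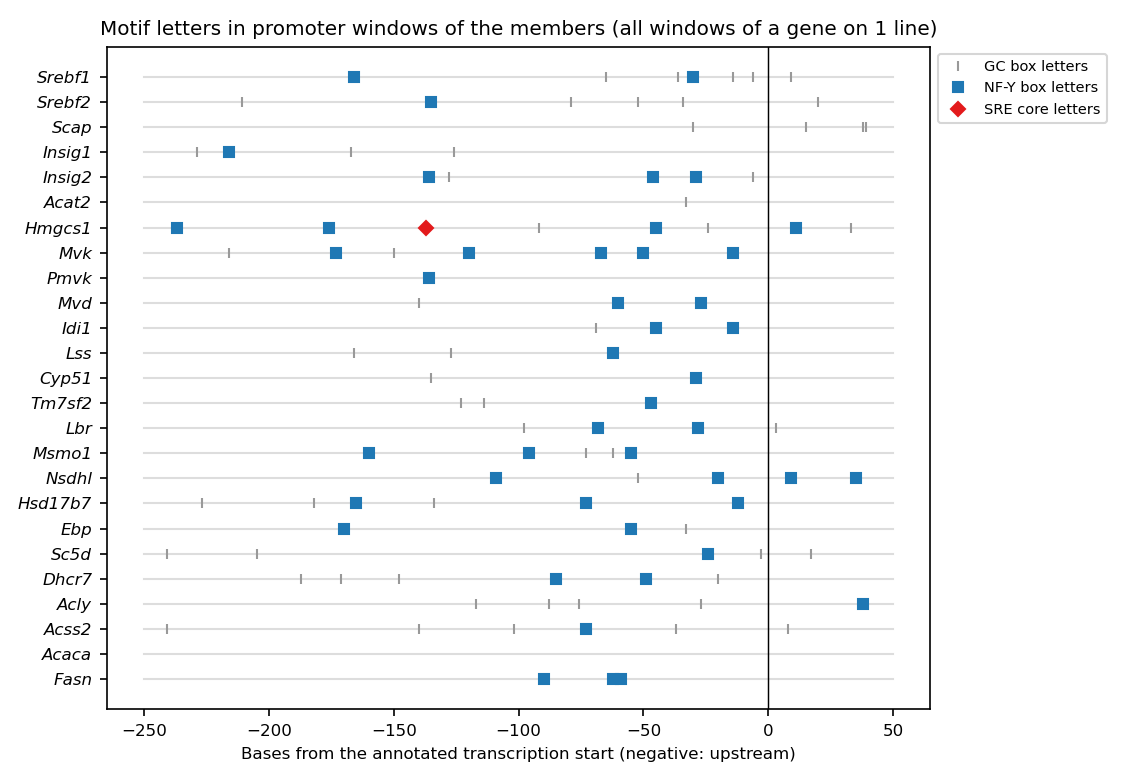
Positions of motif letters in the RefSeq promoter windows of the 25 members that had one. The horizontal axis gives bases from the annotated start (negative is upstream) and each line is a gene, with blue squares for CCAAT, a red diamond for TCACNCCAC and grey ticks for GGGCGG. Blue squares stand on 22 of the 25 lines, and the red diamond stands on Hmgcs1 alone.

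In the uninjected retinas, levels differed far more between members than between groups. Scd2, the brain and nerve form of stearoyl-CoA desaturase, and Acly, the ATP citrate lyase that supplies cytosolic acetyl-CoA, were the most abundant members, with means of 72.6 and 64.5 FPKM in WT retinas at 18 months. Insig1, Srebf2, Hmgcs1, Fdft1 and Srebf1 followed at 29.7, 26.6, 24.3, 21.2 and 20.8 FPKM. At the low end, Scd1, Tm7sf2 and Hsd17b7 averaged 3.08, 2.68 and 2.67 FPKM. Ranges of neighbours in this order overlapped except below Acly, Hmgcs1, Pmvk, Sc5d, Idi1, Dhcr7 and Hsd17b7, where each gene's lowest library lay above the highest library of the next gene. Scd2 and Acly overlapped in WT retinas at 18 months and stood apart in the other uninjected groups.

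Fdps, which encodes farnesyl diphosphate synthase, fell below the mean of 1 FPKM required for testing. Its values were 0.242, 0.248, 0.296 and 0.241 FPKM in WT retinas at 18 months, 0.535, 0.396 and 0.226 FPKM in Elovl2 mutant retinas and 0.352, 0.278 and 0.305 FPKM in WT retinas at 12 months, from 14 to 54 reads a library. Of its possible 75-base reads, 23.5% also match another transcript, and 26.7% of its exonic bases overlap the gene Gm43738 on the same strand. Reads of Fdps may therefore have been lost or split in the authors' counting, and the low level is uncertain. Sharing with a copy also touched Acat2 (33.9%, mainly Acat3), Acaca (26.8%, Gm5182) and Idi1 (16.7%, pseudogenes). On the opposite strand, 18.3% of Fdft1 exonic bases overlap Ctsb and 12.1% of Hmgcs1 exonic bases overlap Gm48342, and the strand setting of the counting is not given in the sources used here.

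**Figure D2:**
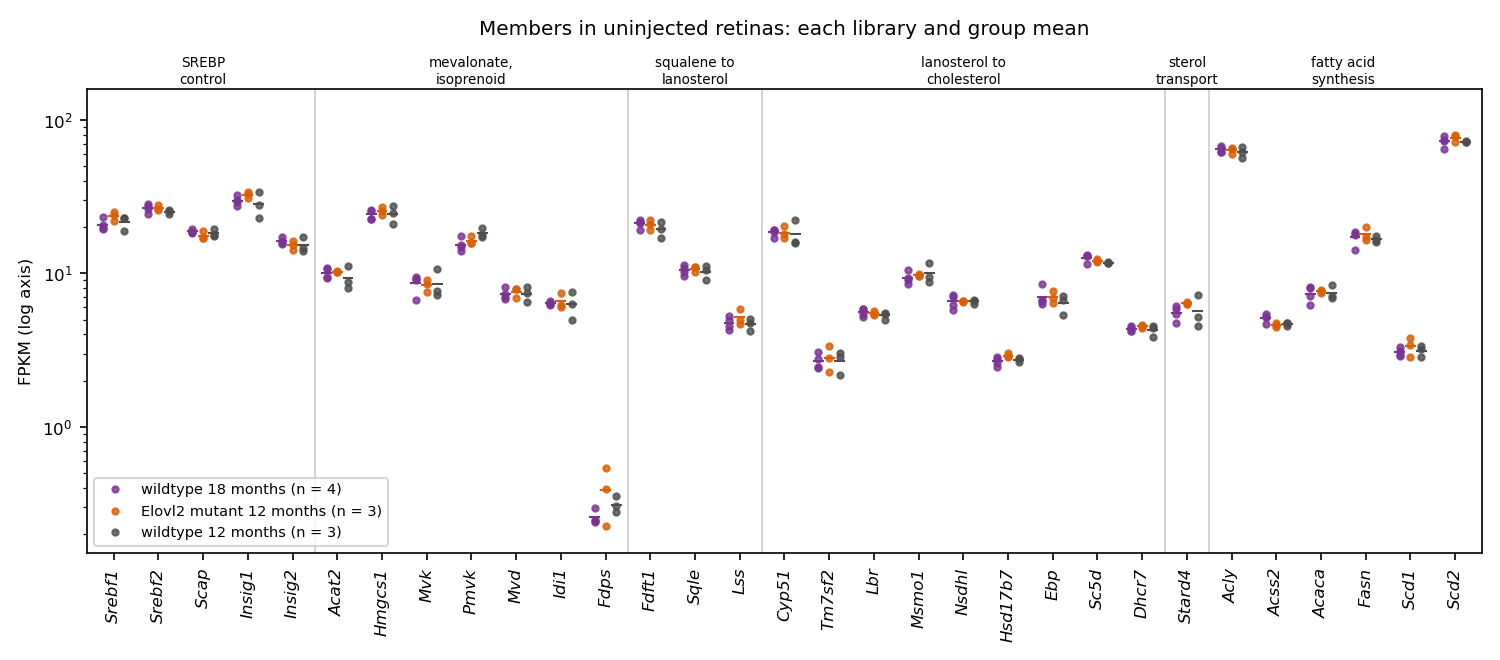
FPKM (log axis) of the 31 members in each uninjected library, with a short bar at each group mean, ordered by role. Levels run from under 1 FPKM for Fdps to over 60 FPKM for Acly and Scd2, and within a gene the 3 groups lie close together.

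Replicates of a group differed little for most members. The median coefficient of variation of the members was 7.26% in WT retinas at 18 months, against 10.02% over all genes tested there. It was 5.83% in Elovl2 mutant retinas (all genes 9.67%) and 10.5% in WT retinas at 12 months (all genes 13.9%). The most variable member was Mvk (14.7%) in WT retinas at 18 months, Tm7sf2 (19.4%) in mutant retinas among members above the filter, and Stard4 (24.7%) in WT retinas at 12 months.

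Of the genes of SREBP control, none passed in any uninjected comparison. Srebf1, which encodes SREBP1, had 19.4, 23.2, 20.8 and 19.8 FPKM in WT retinas at 18 months (20.8 ± 1.67), 24.1, 22 and 25.2 FPKM in Elovl2 mutant retinas (23.7 ± 1.61) and 23.1, 18.9 and 22.8 FPKM in WT retinas at 12 months (21.6 ± 2.33). It was lowest in replicate 2 of WT at 12 months. Srebf2, which encodes SREBP2, had 24.2, 28.5, 27.3 and 26.2 FPKM in WT retinas at 18 months (26.6 ± 1.82), 25.8, 26.5 and 27.9 FPKM in Elovl2 mutant retinas (26.7 ± 1.07) and 24.4, 25.7 and 25.6 FPKM in WT retinas at 12 months (25.2 ± 0.767). All mutant libraries lay above all WT libraries at 12 months, narrowly at the nearest pair. Scap, the sterol-sensing escort of the SREBPs, had 18.4, 19.5, 18.6 and 18.6 FPKM in WT retinas at 18 months (18.8 ± 0.486), 18.8, 16.9 and 17.1 FPKM in Elovl2 mutant retinas (17.6 ± 1.04) and 17.4, 19.5 and 17.8 FPKM in WT retinas at 12 months (18.2 ± 1.09).

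Insig1, which retains SCAP and is itself read by SREBP2, varied most where the libraries of WT at 12 months spread. It had 30.03, 29.2, 27.3 and 32.2 FPKM in WT retinas at 18 months (29.7 ± 2.02), 31.1, 32.7 and 33.8 FPKM in Elovl2 mutant retinas (32.5 ± 1.34) and 28.1, 22.95 and 34.1 FPKM in WT retinas at 12 months (28.4 ± 5.601). Replicates 2 and 3 of WT at 12 months were the lowest and the highest of all 10 libraries. Insig2, the second anchor, had 17.4, 15.4, 15.8 and 16.3 FPKM in WT retinas at 18 months (16.2 ± 0.856), 14.1, 16.1 and 15.4 FPKM in Elovl2 mutant retinas (15.2 ± 1.02) and 14.7, 13.9 and 17.2 FPKM in WT retinas at 12 months (15.3 ± 1.71). The groups overlapped for both genes.

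Among the mevalonate and isoprenoid genes, the 6 tested members had means of 6.27 to 25.5 FPKM. Acat2, the thiolase that joins acetyl-CoA units, had 10.7, 9.44, 9.26 and 10.9 FPKM in WT retinas at 18 months (10.1 ± 0.828), 10.2, 10.2 and 10.4 FPKM in Elovl2 mutant retinas (10.3 ± 0.126) and 8.85, 8.08 and 11.2 FPKM in WT retinas at 12 months (9.36 ± 1.596). Hmgcs1 had 22.8, 25.7, 22.6 and 26.02 FPKM in WT retinas at 18 months (24.3 ± 1.83), 23.9, 27.1 and 25.5 FPKM in Elovl2 mutant retinas (25.5 ± 1.61) and 24.8, 21.1 and 27.4 FPKM in WT retinas at 12 months (24.4 ± 3.14). For both, replicate 2 of WT at 12 months was the lowest library and replicate 3 the highest. Pmvk, phosphomevalonate kinase, had 17.4, 14.9, 15.3 and 14.02 FPKM in WT retinas at 18 months (15.4 ± 1.44), 15.7, 15.7 and 17.6 FPKM in Elovl2 mutant retinas (16.4 ± 1.12) and 17.8, 17.3 and 19.8 FPKM in WT retinas at 12 months (18.3 ± 1.31). Idi1 had 6.22, 6.62, 6.403 and 6.29 FPKM in WT retinas at 18 months (6.38 ± 0.174), 6.05, 7.44 and 6.22 FPKM in Elovl2 mutant retinas (6.57 ± 0.762) and 6.29, 4.97 and 7.55 FPKM in WT retinas at 12 months (6.27 ± 1.29). Idi1 showed the same pattern of WT libraries at 12 months as Hmgcs1.

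From squalene onward, no enzyme passed in an uninjected comparison. Fdft1, squalene synthase, had 22.3, 21.4, 19.3 and 21.6 FPKM in WT retinas at 18 months (21.2 ± 1.304), 19.2, 21.1 and 22.1 FPKM in Elovl2 mutant retinas (20.8 ± 1.51) and 19.4, 17.1 and 21.7 FPKM in WT retinas at 12 months (19.4 ± 2.28). Sqle, squalene epoxidase and a point of control of the path, had 10.8, 9.67, 10.2 and 11.4 FPKM in WT retinas at 18 months (10.5 ± 0.734), 10.2, 10.99 and 11.02 FPKM in Elovl2 mutant retinas (10.7 ± 0.496) and 10.5, 9.09 and 11.2 FPKM in WT retinas at 12 months (10.3 ± 1.06). Lss, lanosterol synthase, had 4.27, 5.24, 4.93 and 4.55 FPKM in WT retinas at 18 months (4.75 ± 0.423), 5.899, 4.98 and 4.699 FPKM in Elovl2 mutant retinas (5.19 ± 0.628) and 4.77, 5.02 and 4.23 FPKM in WT retinas at 12 months (4.67 ± 0.403). The groups overlapped for all 3. Hsd17b7, a sterol ketone reductase, had 2.61, 2.84, 2.47 and 2.78 FPKM in WT retinas at 18 months (2.67 ± 0.167), 2.88, 3.03 and 2.83 FPKM in Elovl2 mutant retinas (2.91 ± 0.103) and 2.64, 2.79 and 2.796 FPKM in WT retinas at 12 months (2.74 ± 0.0895). Sc5d, sterol desaturase, had 12.9, 13.2, 11.5 and 12.9 FPKM in WT retinas at 18 months (12.6 ± 0.735), 12.4, 12.1 and 11.9 FPKM in Elovl2 mutant retinas (12.1 ± 0.256) and 11.6, 11.8 and 11.7 FPKM in WT retinas at 12 months (11.7 ± 0.0884). For Hsd17b7 and Sc5d, every mutant library lay above every WT library at 12 months. The other late enzymes (Cyp51, Tm7sf2, Lbr, Msmo1, Nsdhl, Ebp and Dhcr7) had group means between 2.68 and 18.5 FPKM, and all overlapped in every comparison.

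Stard4, a cholesterol carrier of the cytosol, had 5.42, 5.86, 4.77 and 6.103 FPKM in WT retinas at 18 months (5.54 ± 0.587), 6.36, 6.28 and 6.55 FPKM in Elovl2 mutant retinas (6.39 ± 0.138) and 5.21, 4.52 and 7.21 FPKM in WT retinas at 12 months (5.64 ± 1.396). Its WT libraries at 18 months all lay below its mutant libraries, while replicates 2 and 3 of WT at 12 months were the lowest and the highest of the 10. Acss2, which makes acetyl-CoA from acetate, had 5.18, 5.204, 5.46 and 4.67 FPKM in WT retinas at 18 months (5.13 ± 0.329), 4.64, 4.76 and 4.48 FPKM in Elovl2 mutant retinas (4.63 ± 0.143) and 4.54, 4.73 and 4.77 FPKM in WT retinas at 12 months (4.68 ± 0.121). Fasn, fatty acid synthase, had 14.3, 18.6, 17.8 and 18.1 FPKM in WT retinas at 18 months (17.2 ± 1.96), 20.0, 16.6 and 17.4 FPKM in Elovl2 mutant retinas (17.98 ± 1.79) and 16.1, 16.5 and 17.6 FPKM in WT retinas at 12 months (16.7 ± 0.767). The groups overlapped for both. Scd1, a stearoyl-CoA desaturase, had 2.88, 3.33, 3.13 and 2.96 FPKM in WT retinas at 18 months (3.08 ± 0.201), 3.78, 3.41 and 2.86 FPKM in Elovl2 mutant retinas (3.35 ± 0.4661) and 3.37, 3.202 and 2.83 FPKM in WT retinas at 12 months (3.14 ± 0.277). Scd2 had 64.5, 79.2, 73.2 and 73.5 FPKM in WT retinas at 18 months (72.6 ± 6.07), 79.2, 71.4 and 78.7 FPKM in Elovl2 mutant retinas (76.4 ± 4.38) and 72.5, 71.5 and 72.3 FPKM in WT retinas at 12 months (72.1 ± 0.543). Neither desaturase separated any groups.

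Between WT retinas at 18 months and WT retinas at 12 months, no member passed the adjusted threshold of 0.05 in limma, and neither did any of the 13786 genes tested (0.0% called). Fits to the recovered reads called 1 gene by edgeR (0.00571%) and 9 by DESeq2 (0.0312%), none of them a member. On the scale of log2(FPKM + 1), which understates changes of low genes, 19 of 30 members stood higher at 18 months and the median difference was 0.029, against 49.4% higher and a median of -0.0014 over all genes. Pmvk was lower, at -0.23 (SE 0.083), the only member with an unadjusted p under 0.05, where 503 genes (3.65%) had one, and its 95% interval was -0.42 to -0.048. Next in the order of p came Acss2 at 0.11 (SE 0.063), Sc5d at 0.10 (SE 0.059) and Fdft1 at 0.12 (SE 0.089). Insig2 and Acat2 differed by 0.086 (SE 0.082) and 0.10 (SE 0.0996). No member's groups were free of overlap, where 4.17% of all genes were. The 95% intervals of the members' differences lay between -0.42 and 0.38.

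By role, 4 of 5 control genes, 3 of 6 mevalonate genes, all 3 squalene-to-lanosterol genes, 5 of 9 later enzymes and 4 of 6 fatty acid genes were higher at 18 months. Leaving out replicate 2 of WT at 12 months turned the median to -0.0040 with 14 members higher, and leaving out replicate 3 of WT at 12 months gave 0.074 with 23 higher. Without that replicate 3, 5 members were higher and none lower with an unadjusted p under 0.05, so Pmvk no longer had one. Pmvk also lost it without replicate 4 of WT at 18 months, with DESeq2 on the recovered reads and with the replicate number as a block. Replicates 2 and 3 of WT at 12 months also stood at opposite ends of Malat1, with 377 FPKM in replicate 2 and 85.7 FPKM in replicate 3. Their sterol enzymes deviated from the mean of all 10 libraries by a median of -0.15 in replicate 2 and 0.082 in replicate 3. The part of Malat1's split in the age values was not tested beyond the fit with the split as a term, in which the members' median was 0.022.

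In Elovl2 mutant retinas against WT retinas at 12 months, no member and no other gene passed in limma (0.0% called), and fits to the recovered reads called 0 genes by edgeR and 0 by DESeq2. Of the 30 members, 24 were higher in the mutant with a median of 0.063 on the log2(FPKM + 1) scale, against 47.7% higher and a median of -0.0060 over all genes. The 2 comparisons above share the WT libraries at 12 months, so their values are not independent. Insig1 was higher by 0.21 (SE 0.12), Stard4 by 0.17 (SE 0.14), Srebf1 by 0.13 (SE 0.097) and Acat2 by 0.13 (SE 0.11). Pmvk was lower, at -0.15 (SE 0.089), and Lss was higher by 0.12 (SE 0.098). No member had an unadjusted p under 0.05, where 302 genes (2.19%) had. Without replicate 3 of WT at 12 months 3 members were higher with one, and with Malat1's split as a term 1 was. Srebf2, Hsd17b7 and Sc5d, 3 of 30, were higher without overlap, where 3.05% of all genes were. Intervals of the members lay between -0.35 and 0.49.

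By role, 3 of 5 control genes, 4 of 6 mevalonate genes, all 3 squalene-to-lanosterol genes, 8 of 9 later enzymes, Stard4 and 5 of 6 fatty acid genes were higher in the mutant. Without replicate 2 of WT at 12 months, 17 members were higher and the median was 0.015. In the same comparison, markers of bipolar cells were higher for 4 of 4 (median 0.14), of amacrine cells for 3 of 3 (0.15) and of ganglion cells for 3 of 4 (0.12). Those of Mueller glia were higher for 5 of 5 (0.040), of pigment epithelium for 3 of 3 tested (0.18) and of reactive gliosis for 0 of 5 (-0.30). None passed, and the part of these cells in the members' values was not tested. Among genes outside the members, the liver X receptor list (receptors for oxidised sterols with the genes of sterol export, uptake and esterification) had 1 of 15 higher with a median of -0.048. Within it Nr1h2, which encodes liver X receptor beta, averaged 20.6 ± 0.088 FPKM in the mutant and 22.5 ± 0.56 FPKM in WT at 12 months, a difference of -0.12 (SE 0.060) without overlap. Nus1, of dolichol synthesis, and Erlin1, of sterol-regulated protein degradation, were lower, at -0.12 (SE 0.079) and -0.12 (SE 0.080). None of these passed. Of 9 genes of SREBP processing and sterol-regulated degradation 6 were higher, of 7 genes of isoprenoid branches 2, and of 7 other fatty acid and glycerolipid targets 5.

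WT retinas at 18 months were also set against Elovl2 mutant retinas at 12 months, a comparison in which age and genotype differ together and cannot be told apart. No member and no other gene passed in limma (0.0% called). Fits to the recovered reads called 0 genes by edgeR and 10 by DESeq2 (0.0332%), none of them a member. No member had an unadjusted p under 0.05, where 295 genes (2.14%) had. Of the 30 members, 10 were higher in the older WT retinas, with a median of -0.035, against 53.2% and 0.0064 over all genes. The median was -0.016 without replicate 3 of WT at 18 months, -0.023 without replicate 3 of the mutant and -0.018 with Malat1's split as a term. Srebf1 was lower, at -0.18 (SE 0.090), as were Stard4 at -0.18 (SE 0.13), Lss at -0.11 (SE 0.091) and Hsd17b7 at -0.092 (SE 0.067). Acss2 and Scap were higher by 0.12 (SE 0.063) and 0.091 (SE 0.063). Stard4 alone was free of overlap in the lower direction, 1 of 30 where 2.37% of all genes were. Intervals of the members lay between -0.46 and 0.35. In the other lists, Nr1h2 was higher by 0.16 (SE 0.056) in WT retinas at 18 months, Erlin1 by 0.17 (SE 0.075) and Nr1h3, which encodes liver X receptor alpha, by 0.19 (SE 0.11). SREBP processing and degradation genes had 8 of 9 higher, isoprenoid branches 4 of 7, other fatty acid and glycerolipid targets 2 of 7 and the liver X receptor list 10 of 15.

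For age, no gene of the other lists passed. Of the enzymes that extend isoprenoid chains, Ggps1 was higher by 0.11 (SE 0.053) and Dhdds was lower, at -0.14 (SE 0.058), both without overlap, and Nr1h3 was higher by 0.15 (SE 0.11). Isoprenoid branches had 2 of 7 higher, SREBP processing and degradation genes 7 of 9, other fatty acid and glycerolipid targets 2 of 7 and the liver X receptor list 7 of 15. Beside the members in the age comparison, bipolar markers were higher for 4 of 4 (median 0.15) and cone markers for 4 of 4 (0.057). Mueller glia markers were higher for 5 of 5 (0.049), tested pigment epithelium markers for 3 of 3 (0.50) and gliosis markers for 0 of 5 (-0.41). Pigment epithelium markers summed to 55.1 to 159 FPKM in WT at 18 months and to 70.5 to 107 FPKM in WT at 12 months, and their part was not tested. Markers of reactive gliosis summed to 79.6 FPKM in replicate 1 of WT at 12 months and to 30.98 to 43.35 FPKM in the other 9 uninjected libraries, and their part in the members' values was not tested.

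**Figure D3:**
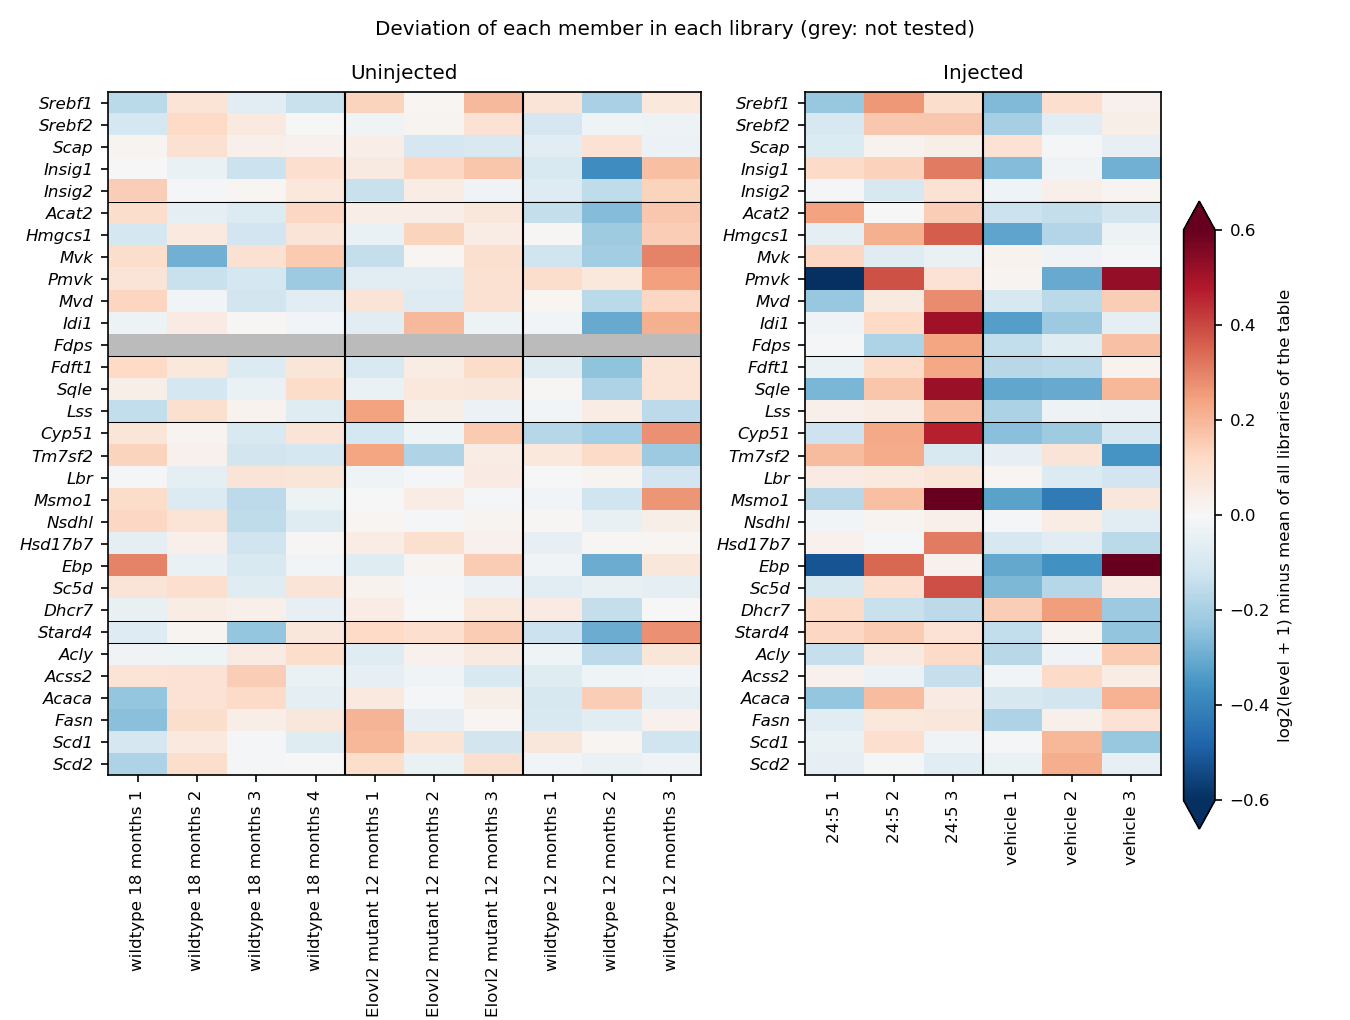
Deviation of each member (rows) in each library (columns) from the mean of all libraries of its table, on a log2(level + 1) scale from -0.6 (blue) to 0.6 (red), with the untested Fdps of uninjected retinas in grey. The WT 12-month replicate 2 column is mostly blue and the 24:5 replicate 3 column mostly red in the sterol rows.

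After 24:5, the sterol genes were higher more often than lower, and none passed the adjusted threshold. Insig1, Hmgcs1, Idi1, Cyp51, Acat2 and Stard4, which hold SREBPs back, make sterol precursors or carry cholesterol, were higher in 24:5 retinas by 0.25 to 0.44 in log2, each with an unadjusted p under 0.05 in edgeR's quasi-likelihood test. The adjusted p-values of these 6 lay between 0.341 and 0.692 (edgeR, Benjamini-Hochberg over 17466 genes), where 0.0115% of genes (2) were called. DESeq2 called 248 genes (1.24%), none of them a member. In all, 24 of 31 members were higher with a median of 0.098, against 50.8% higher and a median of 0.0028 over all genes. Genes higher with an unadjusted p under 0.05 made up 6 of 31 members and 1.44% of all genes, and those lower with one made up 0 of 31 members and 5.16% of all genes. Groups were free of overlap in the higher direction for 7 members (Insig1, Acat2, Idi1, Lss, Lbr, Hsd17b7 and Stard4), where 4.82% of all genes were, and in the lower direction for no member, where 6.77% were.

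Insig1 had 95.4, 97.02 and 109.5 CPM in 24:5 retinas (101 ± 7.703), against 73.3, 86.7 and 71.9 CPM in vehicle retinas (77.3 ± 8.16). Every 24:5 library lay above every vehicle library. The difference was 0.38 in log2 (SE 0.096, 95% interval 0.16 to 0.60, edgeR adjusted p = 0.341), a ratio of 1.302. Its paralog Insig2 had 38.1, 35.8 and 40.8 CPM in 24:5 retinas (38.2 ± 2.49), against 37.7, 39.2 and 38.9 CPM in vehicle retinas (38.6 ± 0.788). These overlapped, with a difference of -0.014 (95% interval -0.19 to 0.16). Srebf2 had 72.1, 86.4 and 86.4 CPM in 24:5 retinas (81.6 ± 8.27), against 66.99, 73.6 and 79.03 CPM in vehicle retinas (73.2 ± 6.03). Srebf1 had 102, 143 and 129 CPM in 24:5 retinas (125 ± 21), against 99.5, 129 and 122 CPM in vehicle retinas (117 ± 15.2). Both overlapped, and their differences were 0.16 (95% interval -0.069 to 0.38) and 0.10 (-0.24 to 0.44). Scap, at 113 ± 5.14 CPM in 24:5 retinas and 114 ± 5.55 CPM in vehicle retinas, differed by -0.018 (-0.18 to 0.14).

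Of the 7 mevalonate and isoprenoid genes, 6 were higher. Hmgcs1 had 159, 191 and 212 CPM in 24:5 retinas (187 ± 26.97), against 132, 146 and 161 CPM in vehicle retinas (147 ± 14.6). Its 24:5 replicate 1 lay below vehicle replicate 3, so the groups overlapped, with a difference of 0.36 (SE 0.12, edgeR adjusted p = 0.554). Idi1 had 19.5, 21.6 and 28.6 CPM in 24:5 retinas (23.2 ± 4.74), against 15.6, 16.9 and 18.99 CPM in vehicle retinas (17.2 ± 1.73). Acat2 had 21.04, 17.6 and 19.7 CPM in 24:5 retinas (19.4 ± 1.73), against 16.1, 15.9 and 16.2 CPM in vehicle retinas (16.1 ± 0.193). Neither Idi1 nor Acat2 overlapped, and they differed by 0.44 (SE 0.16, edgeR adjusted p = 0.613) and 0.28 (SE 0.10, edgeR adjusted p = 0.623). Pmvk was the gene that stood lower, at 38.5, 83.3 and 67.8 CPM in 24:5 retinas and 64.4, 51.5 and 92.4 CPM in vehicle retinas. It was higher in each library with high Irf9 than in vehicle replicates 1 and 2 and 24:5 replicate 1, and its difference of -0.14 had an interval of -1.004 to 0.73. Mvd, Fdps and Mvk differed by 0.089, 0.043 and 0.012.

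All 3 genes that lead from squalene to lanosterol were higher. Sqle had 45.1, 61.6 and 78.8 CPM in 24:5 retinas (61.8 ± 16.8), against 43.96, 44.2 and 63.1 CPM in vehicle retinas (50.4 ± 10.95). Its spread within each group was wide, and the difference of 0.29 had an interval of -0.28 to 0.87. Each library with high Irf9 lay above each library with low Irf9. The difference was 0.033 among low-Irf9 libraries and 0.14 among high-Irf9 libraries. Fdft1 and Lss were tighter, at 0.21 (SE 0.092, edgeR adjusted p = 0.783) and 0.18 (SE 0.080, edgeR adjusted p = 0.801). Of the 9 later enzymes, 7 were higher. Cyp51 had 80.7, 103 and 122 CPM in 24:5 retinas (102 ± 20.8), against 73.8, 75.9 and 81.8 CPM in vehicle retinas (77.2 ± 4.14). The groups overlapped by 24:5 replicate 1 alone, and the difference was 0.40 (SE 0.14, edgeR adjusted p = 0.614). Msmo1, methylsterol monooxygenase, had the largest value of the members, 0.48, with an SE of 0.24 and overlapping groups. Sc5d, Hsd17b7, Tm7sf2, Lbr and Nsdhl differed by 0.27, 0.24, 0.24, 0.13 and 0.020. Dhcr7, the reductase of the last step to cholesterol, and Ebp, sterol isomerase, were lower, at -0.14 (SE 0.16) and -0.17 (SE 0.41). Stard4 had 23.2, 23.7 and 22.6 CPM in 24:5 retinas (23.1 ± 0.529), against 19.1, 21.5 and 17.9 CPM in vehicle retinas (19.5 ± 1.87). These did not overlap, with a difference of 0.25 (SE 0.098, edgeR adjusted p = 0.692).

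**Figure D4:**
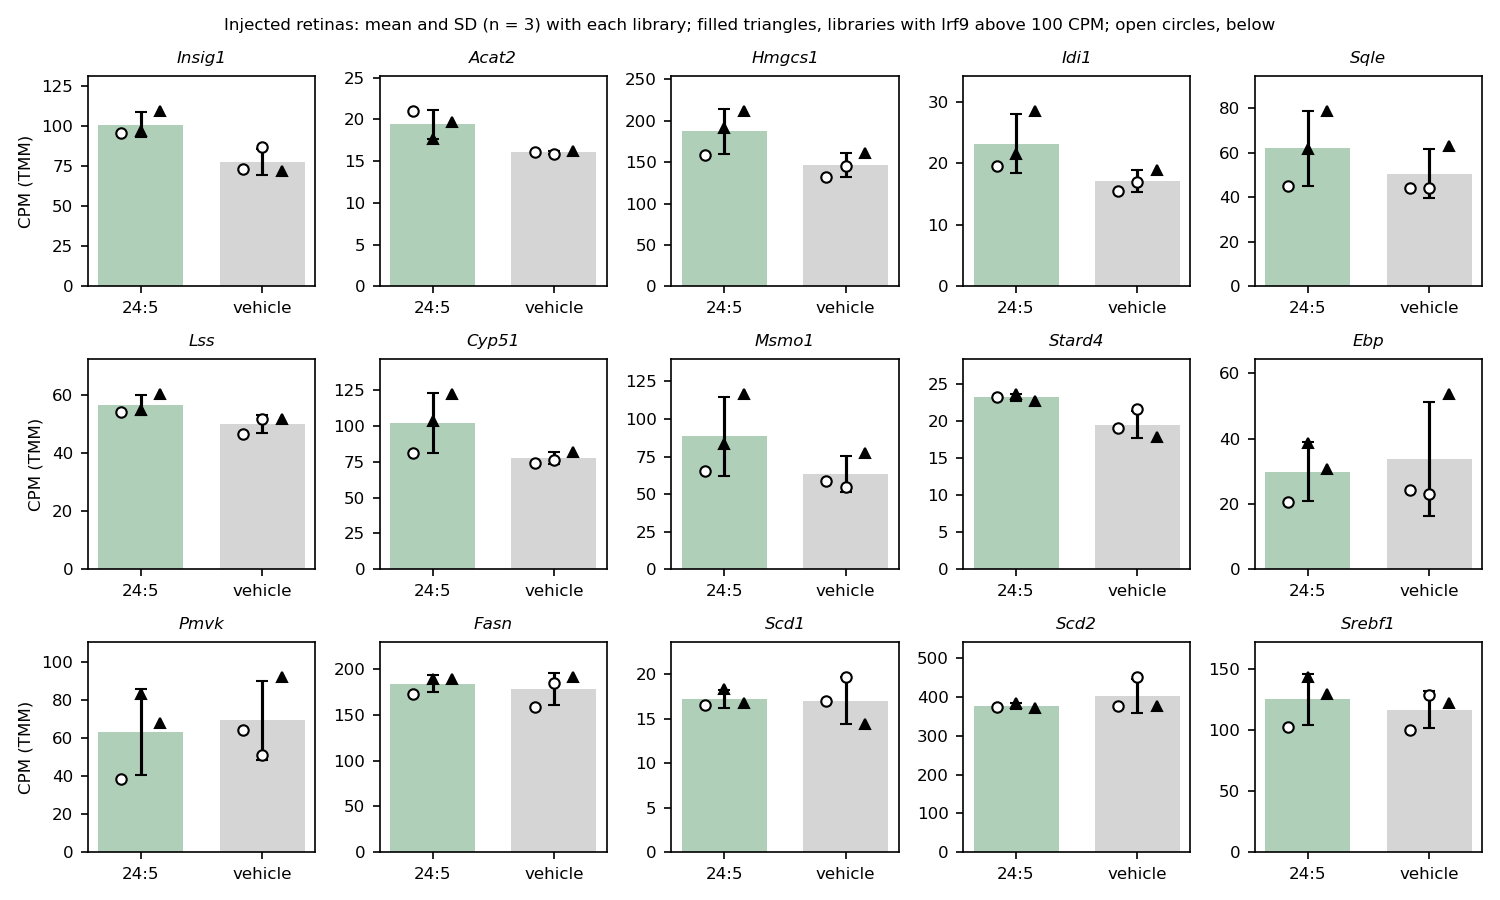
TMM-normalised CPM of 15 members in injected retinas, with bars for the mean and SD (n = 3) and a point for each library (triangles, Irf9 above 100 CPM). For Insig1, Acat2, Idi1, Lss and Stard4 every 24:5 point lies above every vehicle point. For Hmgcs1, Sqle, Cyp51, Msmo1, Ebp, Pmvk and Fasn every triangle lies above every other point.

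The fatty acid genes lay near 0 after 24:5. Of 6, 4 were higher with a median of 0.010 and a range of -0.098 to 0.043, where the 19 enzymes of sterol synthesis had 16 higher, a median of 0.21 and a range of -0.17 to 0.48. The difference between the gene groups was not tested. Fasn had 173, 188 and 189 CPM in 24:5 retinas (183 ± 9.17), against 159, 184 and 191 CPM in vehicle retinas (178 ± 17.2). Scd1 had 16.5, 18.4 and 16.8 CPM in 24:5 retinas (17.2 ± 0.988), against 16.9, 19.7 and 14.4 CPM in vehicle retinas (17.02 ± 2.64). Scd2 had 375, 384 and 370.0 CPM in 24:5 retinas (376 ± 7.36), against 377, 451 and 375 CPM in vehicle retinas (401 ± 43.7). The libraries overlapped for all 3, and their 95% intervals were -0.16 to 0.24, -0.28 to 0.32 and -0.29 to 0.11. Acly, Acss2 and Acaca, which feed and start fatty acid synthesis, differed by 0.021, -0.10 and 0.0027.

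The value over all members depended on the library. Sterol enzymes deviated from the mean of the 6 libraries by medians of -0.020, 0.10 and 0.23 in 24:5 replicates 1, 2 and 3, against -0.15, -0.16 and -0.030 in vehicle replicates 1, 2 and 3. The members' median difference of 0.098 became 0.19 without 24:5 replicate 1, 0.17 without vehicle replicate 3 and 0.049 without vehicle replicate 1. Without 24:5 replicate 3, or without vehicle replicate 1, 1 member was higher with an unadjusted p under 0.05 in edgeR. That count was 3 without 24:5 replicate 2, 2 without vehicle replicate 2, and 8 without 24:5 replicate 1 or without vehicle replicate 3. Between 20 and 26 members were higher with any 1 library left out.

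Irf9 was high in 24:5 replicates 2 and 3 and in vehicle replicate 3, so each side of that split holds both treatments, in unequal numbers. Srebf2, Hmgcs1, Pmvk, Mvd, Fdft1, Sqle, Cyp51, Msmo1, Ebp, Sc5d, Acly, Acaca and Fasn were higher in every high-Irf9 than in every low-Irf9 library. Dhcr7 was lower in every one, and the share of all genes so separated was not counted. The part of this imbalance in the members' differences was not tested beyond the fit with the split as a term. Among libraries with low Irf9 (1 of 24:5 and 2 of vehicle), 18 members were higher in 24:5, and among libraries with high Irf9 (2 of 24:5 and 1 of vehicle), 22 were. On both sides 15 of 31 members (48.4%) and 12 of 19 sterol enzymes (63.2%) were higher, where 29.0% of all genes were. These shares come from the same 6 libraries as the main fit and are no separate test of it. The low side rests on 1 library of 24:5 and the high side on 1 of vehicle, and genes are not replicates. Insig1 was higher by 0.26 among low-Irf9 and 0.52 among high-Irf9 libraries, Hmgcs1 by 0.19 and 0.32, Idi1 by 0.27 and 0.39, Cyp51 by 0.11 and 0.46, Acat2 by 0.40 and 0.20, and Stard4 by 0.19 and 0.37. These genes were picked by their p in the same libraries, so their values on either side are no separate test. With the split as a term in the edgeR fit, Insig1 differed by 0.39 with an adjusted p of 0.0657, the smallest of any member under any setting tried, and 300 genes were called in place of 2. In the same fit the members' median was 0.065 in place of 0.098, with 19 of 31 higher in place of 24. With an unadjusted p under 0.05, 7 members were higher and 2 lower in it.

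Markers of other cells were summed in the same libraries. The 5 microglia and macrophage markers summed to 33.0 to 67.0 CPM in 24:5 retinas and to 102 to 173 CPM in vehicle retinas. The 5 gliosis markers summed to 258 to 781 CPM in 24:5 retinas and to 673 to 899 CPM in vehicle retinas, and the 4 endothelial markers to 188 to 206 CPM in 24:5 retinas and to 214 to 261 CPM in vehicle retinas. Sums of Mueller glia markers overlapped, at 2997 to 3993 CPM in 24:5 retinas and 2910 to 3775 CPM in vehicle retinas, as did those of rods, at 16800 to 17840 CPM in 24:5 retinas and 14360 to 17040 CPM in vehicle retinas, and those of cones, at 522 to 944 CPM in 24:5 retinas and 507 to 764 CPM in vehicle retinas. Gene by gene, 4 of 5 rod markers were higher in 24:5 retinas with a median of 0.18 in log2, and 3 of 4 cone markers with a median of 0.28, beside the 0.21 of the sterol enzymes. Of the rod markers, Rom1 was higher without overlap by 0.22 (SE 0.066, edgeR adjusted p = 0.459) and Nrl was higher by 0.34 (SE 0.12, edgeR adjusted p = 0.608). Amacrine and ganglion markers were higher for 3 of 3 and 4 of 4 with medians of 0.14 and 0.11, and bipolar markers for 1 of 4 with a median of -0.028. Mueller glia markers were higher for 3 of 5 with a median of 0.14 and a range of -0.47 to 0.17. With an unadjusted p under 0.05 in edgeR, 1 Mueller glia marker was lower and 0 were higher, where 5.16% of all genes were lower and 1.44% higher. Pigment epithelium markers summed to 150 to 281 CPM in 24:5 retinas and to 85.7 to 313 CPM in vehicle retinas. Oligodendrocyte markers summed to 44.5 to 53.3 CPM in 24:5 retinas and to 50.8 to 54.7 CPM in vehicle retinas, with Mog at 0 in every injected library. The part of these cells in the members' values was not tested.

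Outside the members, the liver X receptor list had 6 of 15 genes higher after 24:5 with a median of -0.029, and 4 lower and none higher with an unadjusted p under 0.05, where 5.16% of all genes were lower and 1.44% higher with one. Abca1, the cholesterol exporter that liver X receptors turn on, averaged 109 ± 12.9 CPM in 24:5 retinas and 153 ± 5.43 CPM in vehicle retinas without overlap. The difference was -0.49 (SE 0.095, 95% interval -0.71 to -0.27, edgeR adjusted p = 0.209). Lrp1, a receptor for lipoproteins that microglia and other cells carry, was lower, at -0.39 (SE 0.12, edgeR adjusted p = 0.468). Agpat2, of glycerolipid synthesis, differed by -0.67 (SE 0.22, edgeR adjusted p = 0.515), at 1.52 CPM in 24:5 retinas and 2.41 CPM in vehicle retinas. SREBP processing and degradation genes had 6 of 9 higher, isoprenoid branches 4 of 7, and other fatty acid and glycerolipid targets 3 of 9, with medians of 0.022, 0.013 and -0.050.

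**Figure D5:**
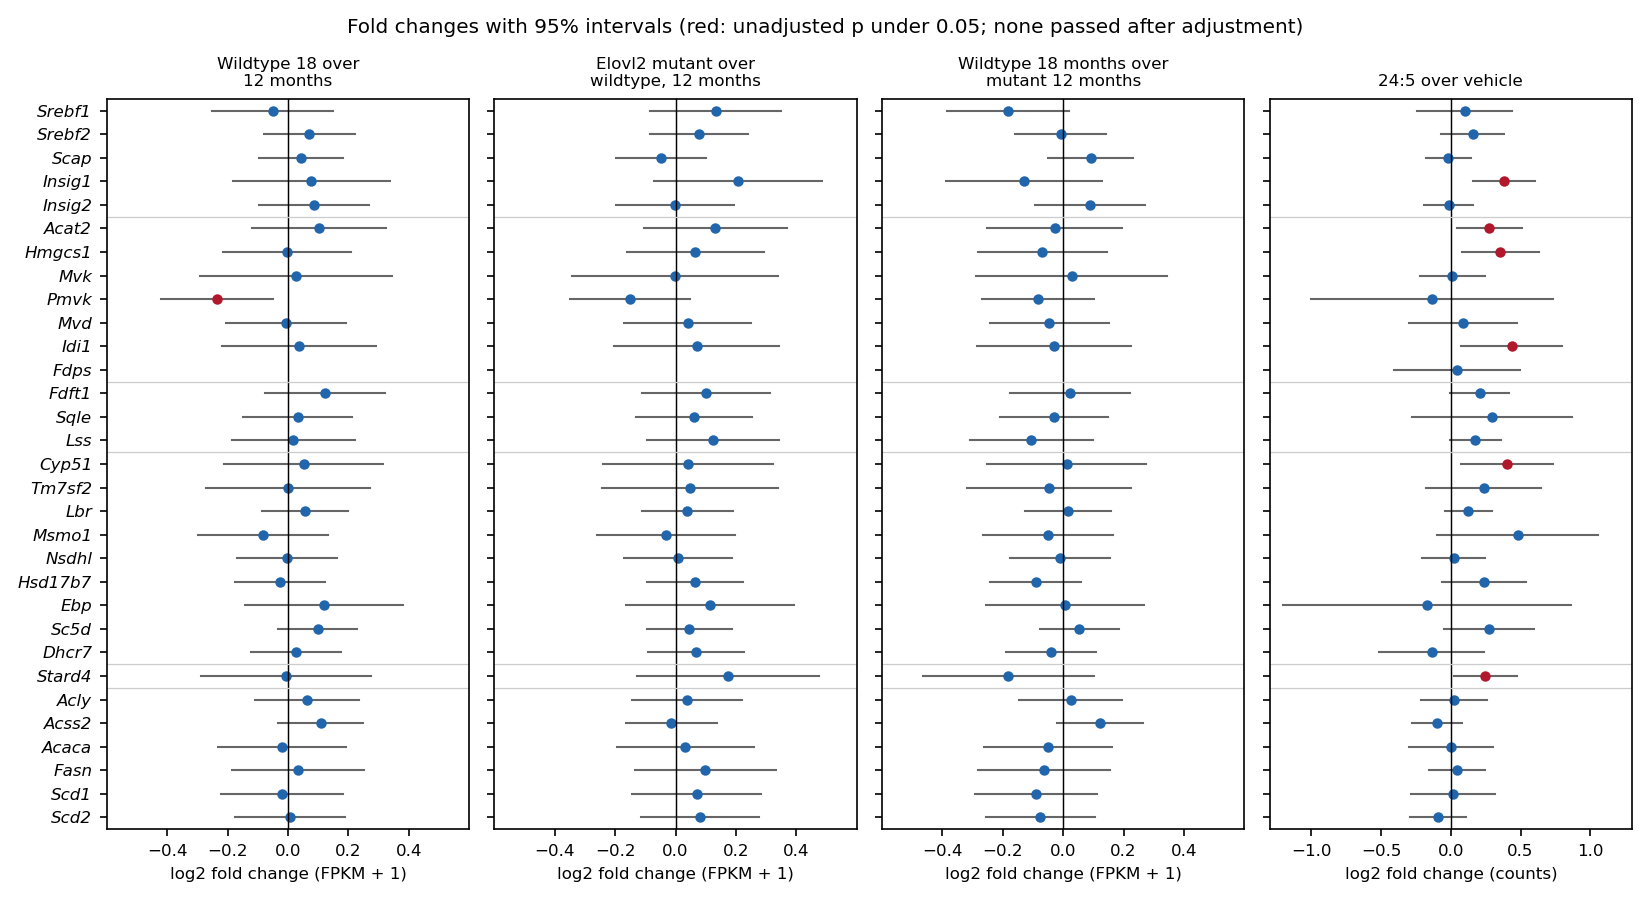
Log2 differences of the members with 95% intervals in the 4 comparisons, with red for an unadjusted p under 0.05 and a wider axis for 24:5 over vehicle. Pmvk is the red point for age and Insig1, Acat2, Hmgcs1, Idi1, Cyp51 and Stard4 are the red points for 24:5, all to the right of 0, and none passed after adjustment.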

How the data were processed

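RNA was taken from 16 whole retinas in 5 groups, purified by poly(A) selection and made into directional libraries, per the labels' protocols. The authors deposited FPKM values per gene for the 10 uninjected retinas, with gene length and mm10 coordinates, per the file headers, and read counts per gene for the 6 injected retinas. HISAT2 2.2.1, featureCounts 2.0.6 and DESeq2 1.42.0 are named with mm10 in the submitters' processing notes, with no role or order, and the strand setting is not given in the sources used here. FPKM was tested with limma 3.58.1 (trend, robust) in R 4.3.3 as log2(FPKM + 1) over 13786 genes with a mean of at least 1, the 3 groups in 1 fit. For the counts, edgeR 4.0.16 was used with TMM and filterByExpr (17466 genes) and its robust quasi-likelihood test. All p-values are two-sided and adjusted by Benjamini-Hochberg over all genes, with a threshold of 0.05. FPKM times gene length gave whole reads for 100.0% of values (within 0.02), and edgeR and DESeq2 1.42.0 on these reads were alternatives, as were a pseudocount of 0.1, no filter, other size factors, 2-group fits, library splits, replicate blocks and each library left out. The tables were normalised separately and were tested apart.

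The members and the lists were chosen with earlier results of these data known. Every member is named. Values per library are given for Srebf1, Srebf2, Insig1, Insig2, Hmgcs1, Sqle, Idi1, Fasn, Scd1 and Scd2 and for the 6 members with the smallest p in each comparison. Of genes in the other lists, the 3 with the smallest p are named. Pmvk, Ebp and Msmo1 in injected retinas were added after their values were seen. Errors after ± are SDs over libraries. Chi-square per degree of freedom between replicates was 3.06 to 42.7, so no pair was alike within counting noise. Shares of 75-base reads that match another transcript were computed from GENCODE M21 transcripts. The fits were run on simulated data with 200 changed genes, with folds larger than any member's here and no split of the libraries. That run says nothing about differences as small as the members'.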

Additional observations from a re-analysis of the deposited data

Results flagged for a closer look

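WT retinas at 18 months were the only group with 4 libraries, so Dixon's test was run there alone. Of the 31 members, 3 had a library far from the others, where chance flags about 1 in 20. Mvk, mevalonate kinase, had its lowest library (replicate 2) at 6.75 FPKM, against 9.07 to 9.54 FPKM in the other replicates. Sc5d had its lowest library (replicate 3) at 11.5 FPKM, against 12.9 to 13.2 FPKM in the others. Fdps had its highest library (replicate 3) at 0.296 FPKM, against 0.241 to 0.248 FPKM in the others, a level that rests on 14 to 20 reads a library.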

How the results depend on the processing

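No member was called under any setting, so the settings below bear on counts over all genes and on medians. For age, 0 genes were called, 4 with no filter, 1 with edgeR and 9 with DESeq2 on recovered reads, 1 with a term for the split of the libraries, and 0 to 1 with a library left out. For genotype, 0 were called, and 4 with no filter. For WT at 18 months against the mutant, 0 were called, 1 with no filter, 10 with DESeq2, 2 with only the 2 groups compared, 1 with the split, and 0 to 3 with a library left out. For 24:5, 2 were called, 248 with DESeq2, 85 with no filter, 300 with the split, and 0 to 105 with a library left out (105 without vehicle replicate 3). The members' median for 24:5 ran from 0.0488 to 0.1889 with a library left out. The cause of these changes was not tested. Of the members, none of them called, 18 of 30 changed sign in at least 1 of 17 alternatives for age, 15 of 30 for genotype, 14 of 30 for WT at 18 months against the mutant, and 14 of 31 in at least 1 of 11 for 24:5.

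With the replicate number as a block, 88 genes were called for 24:5 and no member, and 12 members were higher with an unadjusted p under 0.05. The members' medians under the block were 0.0314 for age, 0.0631 for genotype, -0.0273 for WT at 18 months against the mutant and 0.093 for 24:5. Deviations of same-numbered libraries correlated from -0.389 to 0.424, -0.425 to 0.514, -0.467 to -0.214 and -0.291 to 0.53 in the same order. For 24:5 they were 0.477, -0.291 and 0.53 in replicates 1, 2 and 3. Deviations from a mean of so few libraries are not independent, so these values cannot decide whether equal numbers mark an animal. With 3 or 4 libraries a group, the median SE of a member's difference was 0.089 for age, 0.096 for genotype and 0.12 for 24:5, which limits what could be called.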

Other observations

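Levels per kilobase in the separately normalised tables can be set side by side but not tested. Srebf2 stood at 11.4 CPM per kilobase in 24:5 retinas and 10.2 in vehicle retinas, and at 26.6 FPKM in uninjected WT retinas of the same age. Fdps stood at 1.33 CPM per kilobase in 24:5 retinas, 1.29 in vehicle retinas and 0.257 FPKM in uninjected retinas. Pmvk stood at 36.9 CPM per kilobase in 24:5 retinas, 40.5 in vehicle retinas and 15.4 FPKM in uninjected retinas, and Dhcr7 at 1.90 in 24:5 retinas, 2.10 in vehicle retinas and 4.36 FPKM in uninjected retinas. Acaca stood at 13.4 CPM per kilobase in 24:5 retinas, 13.4 in vehicle retinas and 7.39 FPKM in uninjected retinas. Scd2 and Acly, the most abundant members in every group, were at 69.0 and 67.5 in 24:5 retinas, at 73.5 and 66.5 in vehicle retinas and at 72.6 and 64.5 FPKM in uninjected retinas.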
